A study of Mus musculus with 12 samples.

Results

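The genes described here are 10 genes of lipogenesis, the making of fatty acids from small carbon units: Acly, Acaca, Acacb, Fasn, Elovl6, Scd1, Scd2, Srebf1, Mlxipl and Thrsp. They were chosen by gene symbol, and all 10 were found among the 24421 entries of the count table. Messenger RNA of the tibialis anterior, a fast hindlimb muscle at the front of the shin, was compared between 6 WT samples (strain C57Bl/6) and 6 mdx/mTR samples, all taken from male animals at 4 months of age. In mdx the dystrophin gene, Dmd, is defective, and mTR stands for the telomerase RNA gene, listed as Terc. The animals received no treatment that the labels mention. The sources used here give neither the generation of telomerase RNA loss nor the background strain of the mdx/mTR animals. The labels number the samples but do not state that each came from a separate animal, so p-values measure the spread between these samples.

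Fatty acid synthesis starts in the cytosol, where ATP citrate lyase (Acly) splits citrate into acetyl-CoA. Acetyl-CoA carboxylase turns it into malonyl-CoA, and fatty acid synthase (Fasn) builds palmitate from both. Elovl6 lengthens palmitate, and the stearoyl-CoA desaturases Scd1 and Scd2 place a double bond in the products. Carboxylase exists as Acaca (ACC1), the cytosolic form that feeds synthesis, and Acacb (ACC2), the form at the outer mitochondrial membrane that predominates in skeletal muscle. Malonyl-CoA made by Acacb inhibits carnitine palmitoyltransferase 1 and so limits the entry of fatty acids into mitochondria. Srebf1 encodes SREBP-1, the transcription factor that carries the insulin signal to these genes. Mlxipl encodes ChREBP, its counterpart for glucose, and Thrsp encodes Spot 14, a small protein induced by thyroid hormone and carbohydrate that promotes lipogenesis.

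Library totals ran from 35136327 to 60330410 counts. Levels are given as CPM, each library's counts scaled to a common total, on library sizes scaled by the trimmed mean of M-values (TMM). Dmd lay at 228 to 244 CPM in WT and at 35.2 to 56.4 CPM in mdx/mTR, while only 2 counts fell on Terc, in WT libraries, too few to check the labels. The summed level of 8 muscle fibre markers was 146000 to 172000 CPM in WT and 112000 to 157000 CPM in mdx/mTR. Of 13937 genes tested, 48.3% passed an adjusted p of 0.05 (edgeR quasi-likelihood test, Benjamini-Hochberg adjustment over all tested genes), 25% higher and 23.4% lower in mdx/mTR.

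Of the 10 lipogenesis genes, all of which passed the filter on low counts, 3 passed the test. Acacb fell to 56.3% of its WT mean, Thrsp rose to 148% and Acly rose to 122%. The other 7 genes did not pass, among them Fasn and Srebf1, whose mdx/mTR means were 110% and 101% of WT. The share called, 30.0%, lay below the 48.3% of all tested genes, and the 10 genes had a median log2 fold change of 0.20, beside 0.01 over all tested genes. Called higher were 2 of 10, beside 25% of all genes, and called lower was 1, beside 23.4%. With library totals alone as the scaling, 6 of the 10 were called higher (Acly, Acaca, Elovl6, Scd1, Scd2 and Thrsp) and 1 lower (Acacb). Under that scaling 51.3% of all genes were called, 40.2% higher and 11.2% lower, and the median over all genes moved by 0.156 to a log2 fold change of 0.169. DESeq2 called 2 of 10 higher and 2 lower (all genes 49.9%, 25.4% higher and 24.6% lower), and limma-voom likewise 2 and 2 (all genes 47.5%, 24.0% and 23.5%). With the replicate number as a block, 3 were higher and 1 lower (all genes 46.1%, 23.7% and 22.3%).

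**Figure D1:**
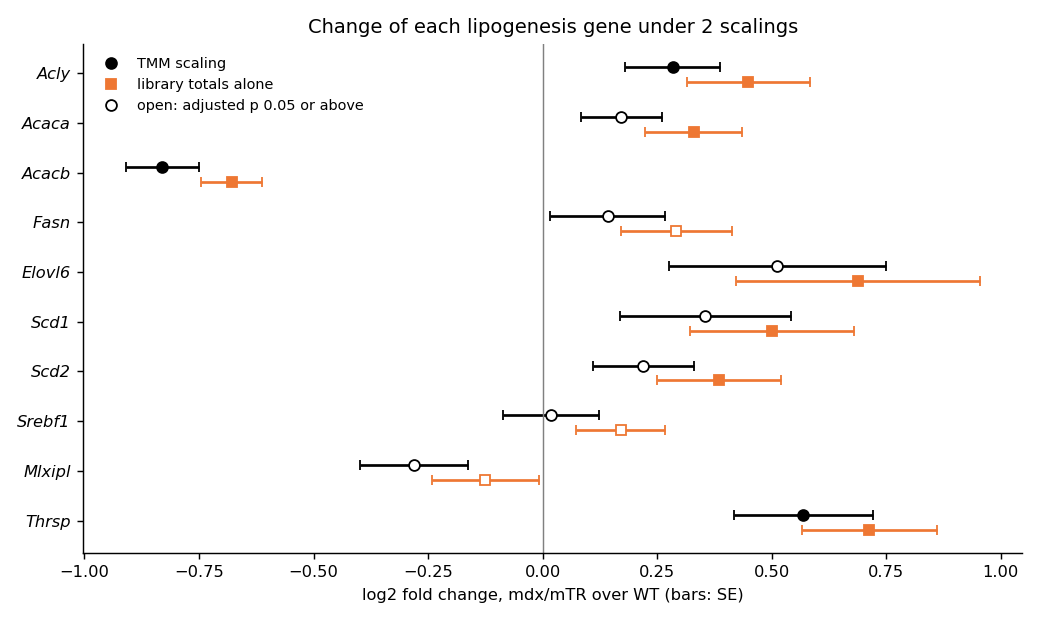
Log2 fold change of each lipogenesis gene, mdx/mTR over WT, with its SE, under TMM scaling (circles) and with library totals alone (squares). Filled symbols passed an adjusted p of 0.05. Acacb stands alone on the left at -0.83 under TMM, and Acly and Thrsp are the filled circles on the right.

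Acacb (chr5:114146535-114250761, plus strand, GRCm38 as for all genes here) was the most abundant of the 10 per length and the one whose groups did not overlap. Its WT libraries ran from 616 CPM through a median of 656 to 725 CPM, on 22053 to 26487 counts. In mdx/mTR they ran from 299 CPM through a median of 375 to 430 CPM. All 6 mdx/mTR libraries therefore lay below all 6 WT libraries, a separation that 25.2% of all tested genes showed in either direction and 12.6% showed downward. Mean levels were 661 ± 40.8 and 372 ± 45.1 CPM (SD, n = 6 each), a log2 fold change of -0.83 ± 0.08 (SE, edgeR adjusted p 3.96e-06). Leaving out each library in turn gave -0.876 to -0.778, with an adjusted p of at most 2.19e-05. The muscle fibre markers had a median log2 fold change of -0.22, with 2 of 8 lower and 1 higher. Whether fewer fibres or less Acacb RNA per fibre underlies the fall cannot be told apart in bulk tissue.

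The counts give no promoter use, and promoter sequences are shown for Acacb, Thrsp and Acly because these 3 genes passed the edgeR test. RefSeq (GRCm38.p6) has an entry for 8 of the 10 genes, and Scd1 and Scd2 were not matched. Each sequence is the 250 bases before a transcript start, 5′ to 3′ on the strand of the gene, with motif matches in capitals.
Acacb promoter, chr5:114165268-114165517, plus strand: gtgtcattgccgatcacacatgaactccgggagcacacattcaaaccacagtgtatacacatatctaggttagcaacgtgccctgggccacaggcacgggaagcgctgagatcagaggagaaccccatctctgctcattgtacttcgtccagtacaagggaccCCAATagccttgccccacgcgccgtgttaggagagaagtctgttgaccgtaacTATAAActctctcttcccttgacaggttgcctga
Thrsp promoter, chr7:97417551-97417800, minus strand: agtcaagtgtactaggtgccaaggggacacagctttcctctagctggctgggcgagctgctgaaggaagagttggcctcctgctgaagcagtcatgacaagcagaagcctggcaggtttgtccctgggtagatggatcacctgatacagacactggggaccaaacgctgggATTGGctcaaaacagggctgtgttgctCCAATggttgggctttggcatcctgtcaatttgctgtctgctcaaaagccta
Acly promoter, chr11:100528001-100528250, minus strand: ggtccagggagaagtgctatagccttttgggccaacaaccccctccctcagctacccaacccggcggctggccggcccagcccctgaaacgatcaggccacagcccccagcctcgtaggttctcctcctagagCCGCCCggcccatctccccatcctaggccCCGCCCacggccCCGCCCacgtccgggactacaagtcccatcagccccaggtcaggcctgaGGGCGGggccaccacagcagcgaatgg
GENCODE M21 starts Acacb at base 114146535, upstream of this window, and Thrsp at base 97417730, inside it, so other starts exist for both.

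Motifs were searched on both strands. They were CCAAT (bound by NF-Y, in 33.8% of all 32851 RefSeq promoter windows of this length), GGGCGG (the GC box, 32.7%), TATAAA (12.4%), CACGTG (the E-box, 6.02%) and, for sterol response elements, the LDL receptor element (0.0731%) and the core TCACNCCA (3.67%) that it contains. The Acacb window held CCAAT from 87 bases and TATAAA from 34 bases before the start. The Thrsp window held a reversed and a forward CCAAT, from 79 and 52 bases before the start. The Acly window held 4 GC boxes and none of the other motifs. TCACNCCA occurred in 1 window of the 8 genes, that of a downstream start of Mlxipl, and the LDL receptor element in none. These letter matches are descriptions of the windows and do not show that a factor binds.

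Acaca (chr11:84129672-84401651, plus strand), the synthesis isoenzyme, ran from 6.94 CPM through 7.94 to 8.77 CPM in WT and from 7.51 through 8.74 to 10.2 CPM in mdx/mTR. The groups overlapped, with 3 of 6 mdx/mTR libraries above every WT library. Acaca had a log2 fold change of 0.17 ± 0.09 (SE, edgeR adjusted p 0.126), which as a fold is 1.13 with a 95% interval from the SE of 0.998 to 1.27. Acaca is uncertain because 52.56% of the 50-base stretches of its transcript also occur in the pseudogene Gm5182, and such reads may have been dropped or split.

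The 2 carboxylases were compared as shares of their counts per kilobase of exon. Acacb made up 98.7% to 99.1% in WT and 97.4% to 98.3% in mdx/mTR, so the groups did not overlap and Acacb made nearly all carboxylase transcripts in both. Mean shares were 98.9% ± 0.149 and 97.8% ± 0.345 (SD, n = 6 each), a difference of -1.09 points (two-sided exact permutation p 0.00216, the smallest this design can give, adjusted p 0.00433 over 2 shares). The share is taken from the same Acacb counts, so its difference and the fall of Acacb are not separate observations. It also rests on the count of Acaca, which is uncertain because of the stretches shared with Gm5182. The summed level of both genes averaged 76.0 CPM per kilobase across WT libraries and 43.2 ± 5.15 CPM per kilobase across mdx/mTR libraries (SD, n = 6). Their coding sequences were 72.0% identical over aligned bases, and the longest identical run was 29 bases, shown here in capitals with its neighbours because it bounds how far reads of the 2 genes can be confused.
Acaca coding bases 4408 to 4436: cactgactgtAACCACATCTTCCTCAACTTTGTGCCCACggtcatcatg
Acacb coding bases 4738 to 4766: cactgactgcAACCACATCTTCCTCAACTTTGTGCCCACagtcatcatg

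Acly (chr11:100476353-100528000, minus strand) rose. WT libraries ran from 20.5 CPM through a median of 21.3 to 25.6 CPM, and mdx/mTR libraries from 22.4 through 26.4 to 35.8 CPM. All 6 mdx/mTR values lay above the WT mean of 22.2 ± 2.08 CPM (SD, n = 6), but only 3 of 6 lay above every WT library. Its log2 fold change was 0.28 ± 0.10 (SE, edgeR adjusted p 0.0367). This call was lost in 7 of the 12 fits that each left out 1 library (WT 1, 3, 4 or 5, or mdx/mTR 2, 3 or 5), and without mdx/mTR 5 the log2 fold change was 0.184 (edgeR adjusted p 0.0688).

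Fasn (chr11:120805846-120824547, minus strand) did not pass the test. WT libraries were tightly grouped at 19.1 to 23.6 CPM around a median of 21.1 CPM. The mdx/mTR libraries ran from 17.4 to 30.5 CPM around a median of 23.1 CPM, with 2 above all WT libraries (mdx/mTR 1 and 3) and 2 below all of them (mdx/mTR 2 and 4). The coefficient of variation of Fasn was 6.69% in WT and 22.9% in mdx/mTR. Its log2 fold change was 0.14 ± 0.13 (SE, edgeR adjusted p 0.369), a fold of 1.10 with a 95% interval of 0.931 to 1.31. Without mdx/mTR 3 or 1, its highest libraries, it was 0.0535 or 0.0763, and without mdx/mTR 4, its lowest, 0.214 (edgeR adjusted p 0.726, 0.637 and 0.141). With library totals alone it was 0.292 (edgeR adjusted p 0.0586).

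**Figure D2:**
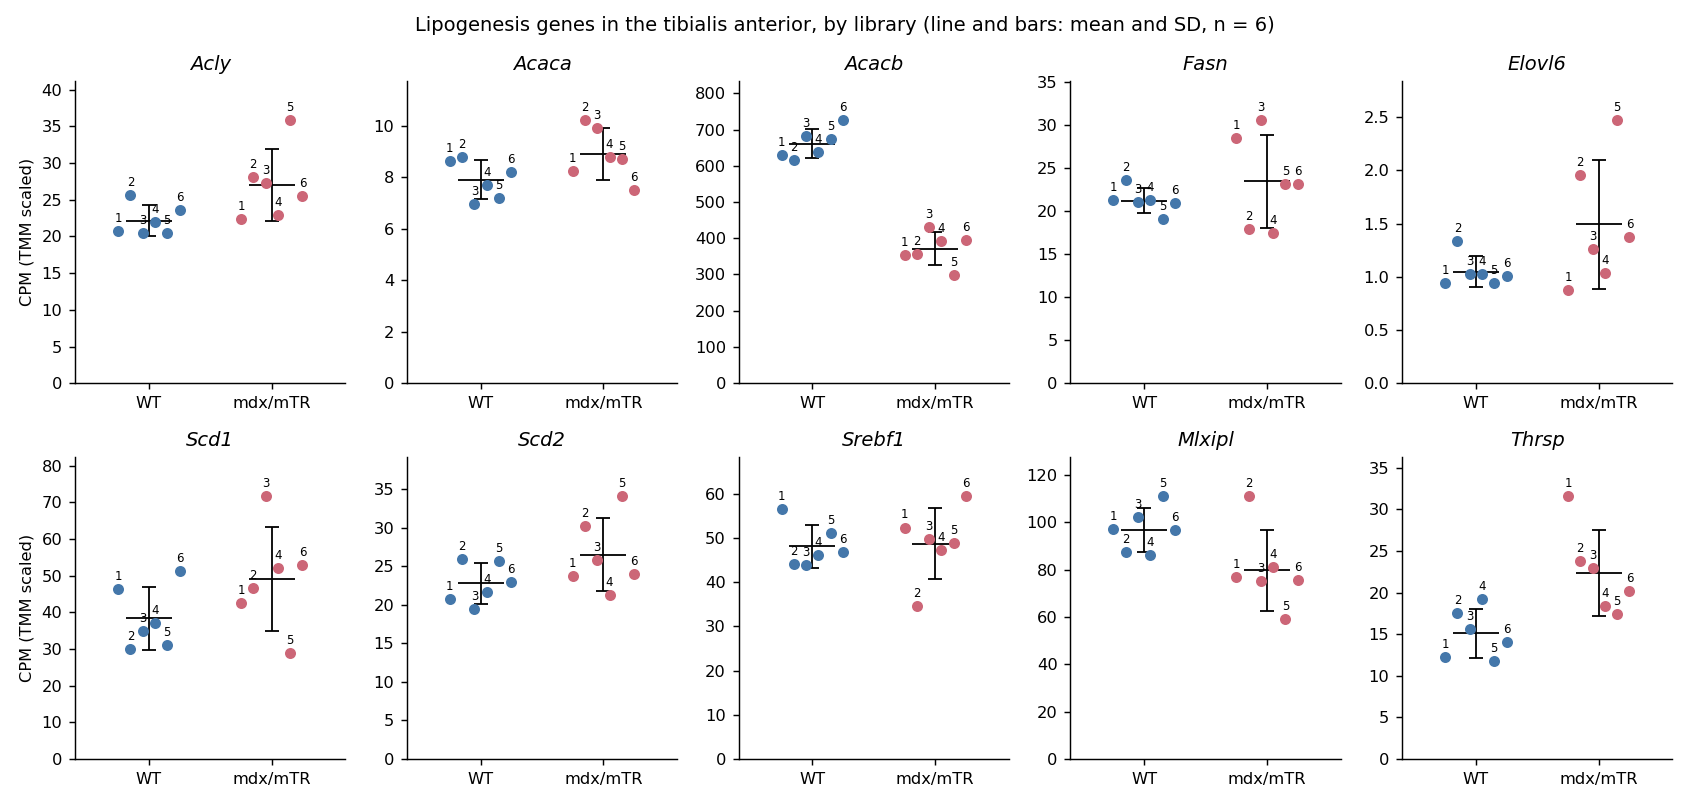
TMM-scaled CPM of the 10 lipogenesis genes in each library (points, numbered by replicate), with the mean and SD of each group of 6. Acacb is the panel in which the groups are apart, at 616 to 725 CPM in WT and 299 to 430 CPM in mdx/mTR. Fasn, Scd1, Elovl6 and Thrsp spread widely within mdx/mTR.

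None of the 3 genes for elongation and desaturation passed in edgeR, in DESeq2 or in limma-voom, and 1 of them, Elovl6, had an unadjusted edgeR p below 0.05. Elovl6 (chr3:129532355-129638495, plus strand) was the least abundant of the 10 per length, on 34 to 128 counts per library. It ran from 0.940 CPM through 1.02 to 1.34 CPM in WT and from 0.872 through 1.32 to 2.47 CPM in mdx/mTR. The mdx/mTR group held both the lowest and the highest library, with 3 above all of WT and 1 below. Elovl6 had a log2 fold change of 0.51 ± 0.24 (SE, edgeR adjusted p 0.0892; fold 1.43, 95% interval 1.03 to 1.97), and without mdx/mTR 1 it was 0.630 (edgeR adjusted p 0.0294). Without mdx/mTR 5, its highest library, it was 0.315 (edgeR adjusted p 0.225).

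Scd1 (chr19:44394455-44407879, minus strand) ran from 29.9 CPM through 35.9 to 51.2 CPM in WT and from 28.8 through 49.3 to 71.7 CPM in mdx/mTR. Replicate 3 was the highest and replicate 5 the lowest of the mdx/mTR libraries, and replicate 5 lay below every WT library. A log2 fold change of 0.36 ± 0.19 resulted (SE, edgeR adjusted p 0.129; fold 1.28, 95% interval 0.994 to 1.65), and without mdx/mTR 5 it was 0.466 (edgeR adjusted p 0.0252). Without mdx/mTR 3 it was 0.218 (edgeR adjusted p 0.312).

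Scd2 (chr19:44293674-44306864, plus strand) ran from 19.5 CPM through 22.3 to 25.9 CPM in WT and from 21.3 through 24.9 to 34.1 CPM in mdx/mTR. Its highest mdx/mTR libraries were replicates 5 and 2, the only ones above all of WT. This gave a log2 fold change of 0.22 ± 0.11 (SE, edgeR adjusted p 0.115; fold 1.16, 95% interval 1.0 to 1.35). Without mdx/mTR 4 it was 0.276 (edgeR adjusted p 0.0478), and without mdx/mTR 5 it was 0.133 (edgeR adjusted p 0.274).

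Scd1 and Scd2 are neighbours on chromosome 19, and 4.66% and 4.01% of their 50-base stretches also occur in other genes, among them each other, Scd3 and Scd4. Scd3 and Scd4 had 28 and 47 counts over all 12 libraries and were not tested. The coding sequences of Scd1 and Scd2 were 90.3% identical, and their longest identical run was 147 bases. It is printed in capitals with 10 bases on either side, since reads inside it fit both genes.
Scd1 coding bases 523 to 669: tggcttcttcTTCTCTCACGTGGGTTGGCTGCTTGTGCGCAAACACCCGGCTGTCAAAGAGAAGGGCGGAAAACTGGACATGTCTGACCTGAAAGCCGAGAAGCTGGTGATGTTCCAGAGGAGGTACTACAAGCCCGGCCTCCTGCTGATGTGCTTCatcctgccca
Scd2 coding bases 532 to 678: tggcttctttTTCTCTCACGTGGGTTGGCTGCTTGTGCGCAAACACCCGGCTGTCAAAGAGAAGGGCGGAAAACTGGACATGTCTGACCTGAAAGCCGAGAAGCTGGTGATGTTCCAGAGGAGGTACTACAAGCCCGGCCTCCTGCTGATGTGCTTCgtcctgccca

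Scd2 made up 28.5% to 43.4% of the counts per kilobase of the pair in WT and 24.1% to 51.2% in mdx/mTR, with wide overlap. On average the share was 35.0% ± 6.56 for WT and 33.3% ± 9.80 for mdx/mTR (SD, n = 6 each), a difference of -1.66 points (two-sided exact permutation p 0.753, adjusted p 0.753 over 2 shares). Replicate 5 held the highest Scd2 share of the mdx/mTR group and replicate 3 the lowest, the reverse of their order for Scd1. Scd1 is part of the total that the share is taken from, so these orders are not separate observations. Without mdx/mTR 5 the difference was -5.23 points.

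Among the regulators, Thrsp (chr7:97412938-97417730, minus strand) passed the test. It ran from 11.8 CPM through a median of 14.8 to 19.2 CPM in WT and from 17.4 through 21.6 to 31.6 CPM in mdx/mTR. The groups overlapped only at their edges: 4 of 6 mdx/mTR libraries lay above every WT library and all 6 above the WT mean of 15.1 ± 2.96 CPM (SD, n = 6). Thrsp had a log2 fold change of 0.57 ± 0.15 (SE, edgeR adjusted p 0.00731). It was 0.444 without mdx/mTR 1, the highest library, and in no fit that left out 1 library did the adjusted p exceed 0.019.

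Srebf1 (chr11:60199089-60222581, minus strand) ran from 44.0 CPM through 46.5 to 56.6 CPM in WT and from 34.7 through 49.3 to 59.5 CPM in mdx/mTR. Its log2 fold change was 0.02 ± 0.11 (SE, edgeR adjusted p 0.902), a fold of 1.01 with a 95% interval of 0.878 to 1.17, and its sign was negative in 4 of the 12 fits that left out 1 library. RefSeq lists 3 starts for Srebf1, and counts per gene do not separate the SREBP-1a and SREBP-1c transcripts. Of the exon bases of Srebf1, 2.54% overlap Rai1 on the opposite strand, and strand handling is not given in the sources used here.

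Mlxipl (chr5:135089890-135138382, plus strand) ran from 86.2 CPM through 96.9 to 111 CPM in WT and from 58.9 through 76.1 to 111 CPM in mdx/mTR. Below every WT library lay 5 of 6 mdx/mTR libraries, while mdx/mTR 2 was as high as the highest WT library. For Mlxipl the log2 fold change was -0.28 ± 0.12 (SE, edgeR adjusted p 0.0618; fold 0.823, 95% interval 0.702 to 0.965). Without mdx/mTR 2 it was -0.399 (edgeR adjusted p 0.00218), and with all libraries it passed in DESeq2 (adjusted p 0.0434) and limma-voom (adjusted p 0.0414). With library totals alone it was -0.125 (edgeR adjusted p 0.382). RefSeq lists 2 starts for Mlxipl, and counts per gene do not separate the alpha and beta forms of ChREBP.

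In the authors' deposited table, 4 of the 10 genes have an adjusted p below 0.05, against 50.1% of the genes that have one. They are Acacb, with a log2 fold change of -0.83, Thrsp (0.54), Acly (0.27) and Mlxipl (-0.28, adjusted p 0.0412), all given in the authors' deposited table. Mlxipl is the gene on which that table and the edgeR fit differ.

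Per length, Acacb led the 10 genes in both groups. Its level averaged 75.2 ± 4.64 CPM per kilobase for WT and 42.3 ± 5.13 for mdx/mTR (SD, n = 6 each). It held 50.3% to 53.5% of the summed level of the 10 genes in WT but 33.2% to 38.9% in mdx/mTR. The other 9 summed to 69.8 ± 1.27 CPM per kilobase in WT and to 75.2 ± 6.65 CPM per kilobase among mdx/mTR libraries (SD, n = 6 each), with overlapping ranges. Mlxipl came next in WT at 26.7 CPM per kilobase, clear of Thrsp at 11.8, but in mdx/mTR the ranges of Mlxipl (22.0) and Thrsp (17.5) overlapped. Thrsp and Srebf1, Srebf1 and Scd1, and Acly and Scd2 overlapped with each other in both groups, and Scd1 and Acly in mdx/mTR. Fasn (2.11 in WT), Acaca (0.830) and Elovl6 (0.171 CPM per kilobase) closed the order in both groups, each clear of the next. The level of Acaca is uncertain, because 52.56% of the 50-base stretches of its transcript also occur in Gm5182. The order of mean levels was the same in WT and mdx/mTR.

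**Figure D3:**
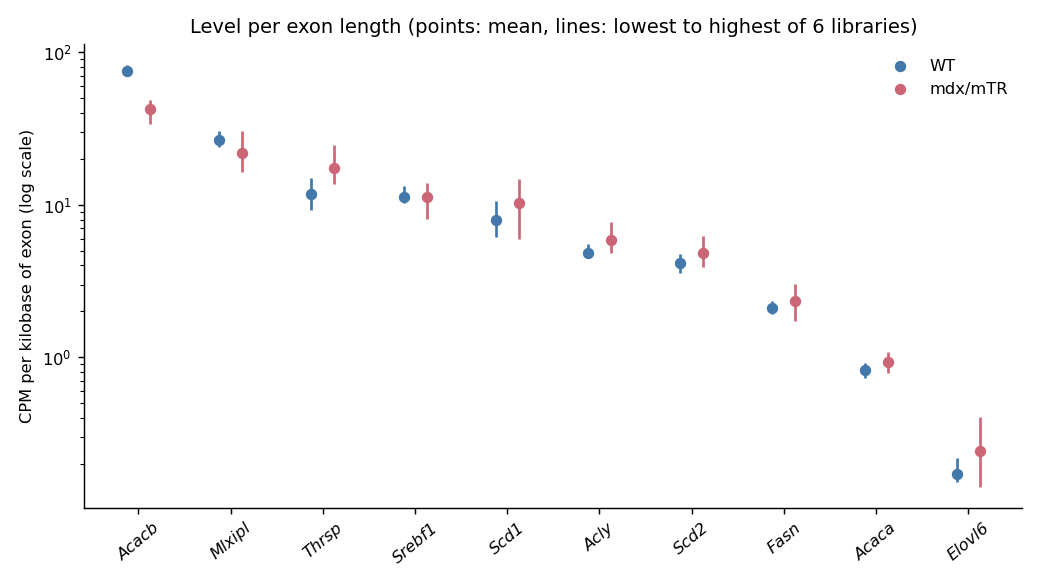
Mean level of each lipogenesis gene in CPM per kilobase of exon (log axis), with lines from the lowest to the highest of 6 libraries, for WT and mdx/mTR. Acacb leads both groups, at 75.2 in WT and 42.3 in mdx/mTR, and the order of the 10 genes is the same in both.

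All 10 genes varied more among mdx/mTR than among WT libraries, with coefficients of variation of 11.5% to 40.5% against 6.17% to 22.4%, where 62.7% of all tested genes had the larger coefficient in mdx/mTR. Subsets of the genes varied alike. Over the 12 libraries, deviations from the group means in log2(CPM + 0.5) had a Pearson r of 0.910 between Acly and Elovl6, 0.824 between Acly and Scd2, 0.806 between Elovl6 and Scd2 and 0.830 between Acacb and Scd1. Acacb and Elovl6 had an r of -0.603. These values describe libraries that share depth and tissue makeup. Acly, Elovl6 and Scd2 were each highest in mdx/mTR 5, followed by mdx/mTR 2, and in WT each was highest in WT 2. In mdx/mTR 5 they stood at 133%, 165% and 129% of the mdx/mTR mean. In the same library Acacb, Scd1, Mlxipl and Thrsp were at their lowest of the group, at 80.6%, 58.6%, 73.9% and 77.7% of the mean. Scd1 and Fasn were both highest in mdx/mTR 3, at 146% and 130%.

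Marker levels of other cells moved with some of these differences. The summed level of 6 fibro-adipogenic progenitor markers, all 6 of them higher in mdx/mTR in edgeR, was 870 to 1590 CPM in WT and 2230 to 4430 CPM in mdx/mTR. It was highest in the libraries in which Acly, Elovl6 and Scd2 were highest, WT 2 in WT and replicates 5 and 2 in mdx/mTR. In WT 4 this sum was nearly as high as in WT 2 (125% and 130% of the WT mean). There, however, Acly, Elovl6 and Scd2 stood at only 99.4%, 98.6% and 95.3%. In WT 5 Scd2 stood at 113%, with the progenitor sum at 80.0%. The sum of 9 macrophage markers, 8 of them higher, was 70.4 to 114 CPM in WT and 172 to 445 CPM in mdx/mTR, and was also highest in mdx/mTR 5 and 2, but in WT it was highest in WT 6. The sum of 5 satellite cell and myoblast markers, 4 of them higher, was 23.6 to 33.8 CPM and 45.0 to 104 CPM, again highest in mdx/mTR 5, but lowest in WT 2. The muscle fibre sum, of which Myh4 was the largest part, was lowest in mdx/mTR 5, where Acacb, Mlxipl, Scd1 and Thrsp were lowest. In mdx/mTR 2, next lowest for that sum (90.6% of the group mean), Mlxipl was at its highest (139%) and Thrsp at 106%, and in WT 2, the lowest of WT (90.4%), Thrsp was at 117%. Acacb and Scd1 were at their lowest of WT in WT 2 (93.2% and 77.9%). In WT 6, however, next lowest of WT for the fibre sum (93.7%), Acacb and Scd1 were at their highest (110% and 133%). In mdx/mTR 1, where the fibre sum was highest (118%), they stood at 95.5% and 86.6%. The part of these cells in the levels of the lipogenesis genes was not tested.

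Adipocytes make fatty acids at a high rate, so their markers were read beside the lipogenesis genes. Of 8 adipocyte markers, 6 were tested and 0 passed in edgeR, 0 had an unadjusted p below 0.05, and 0 passed in DESeq2 or limma-voom. Without the filter on low counts edgeR tested all 8 and called 1 lower, Lep, the gene of leptin (log2 fold change -1.14 ± 0.397 SE, adjusted p 0.0346), on 2 to 26 counts per library. Adipoq, the gene of adiponectin, was at 2.80 to 3.70 CPM in WT and 1.90 to 5.63 CPM in mdx/mTR, and none of the 8 markers was at 0 in any library. Lep and Adrb3 did not pass that filter, at no more than 0.711 and 0.601 CPM. The sum of the 8 was 23.0 to 36.2 CPM in WT and 20.1 to 63.1 CPM in mdx/mTR. Most of it came from 1 marker, Cfd, with a mean of 18.9 of 29.6 CPM in WT and 24.6 of 34.5 CPM in mdx/mTR. The sum was highest in mdx/mTR 3 (183% of the mdx/mTR mean), where Scd1 and Fasn were highest, and lowest in mdx/mTR 5, where Scd1 was lowest. Fasn otherwise did not follow it, since it was lowest (74.3%) in mdx/mTR 4, where the adipocyte sum was 126%, and second highest (122%) in mdx/mTR 1, where the sum was 61.3%. In WT the highest sum was in WT 4, and the highest Scd1 in WT 6. Schwann cells also make lipid for myelin, and 8 of 10 of their markers fell (sum 55.5 to 68.4 CPM in WT, 29.7 to 44.8 CPM in mdx/mTR), while endothelial markers had 3 of 6 lower and 1 higher (sum 425 to 568 and 349 to 469 CPM). The part of these 3 cell types in the results was not tested.

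**Figure D4:**
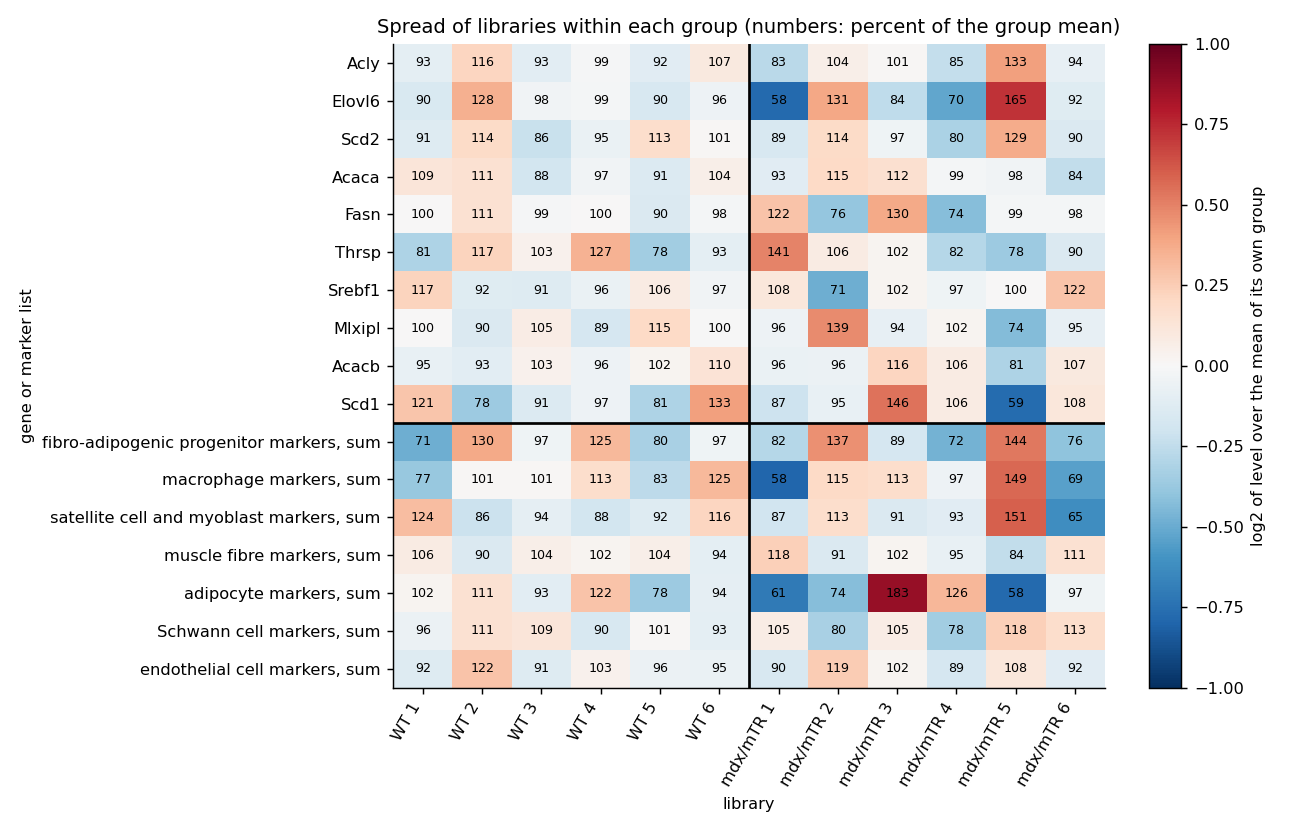
Level of each lipogenesis gene and summed level of each marker list in every library, as percent of the mean of its own group (numbers) and as its log2 (colour). In mdx/mTR 5, Acly, Elovl6 and Scd2 stand at 129% to 165% and Scd1 at 58.6%, beside fibro-adipogenic progenitor, macrophage and myoblast sums of 144% to 151%.

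The genes with the most similar pattern were sought by the Pearson r of deviations from the group means in log2(CPM + 0.5) over the 12 libraries, among tested genes with a mean of at least 5 CPM. These are the highest of about 9508 values per gene, from libraries that share depth and tissue makeup, and are given as a description. For Acly they included Sec61a1, a subunit of the channel through which proteins enter the endoplasmic reticulum (r = 0.982), and Rgl1 (0.966). Acacb was followed most closely by Adssl1, the muscle adenylosuccinate synthase (0.887), Lgalsl (0.878) and Rapgef1 (0.869), and Rapgef1 was also among the 3 nearest Scd1 (0.856). For Thrsp the nearest were Chodl (0.933), Zfp397 (0.885) and Smco4 (0.885). Elovl6 lay nearest to Tbc1d2b (0.965), Ptbp1 (0.964) and Degs1 (0.949), the last a desaturase of sphingolipid synthesis. No other lipogenesis gene was among the 3 nearest of any of the 10.

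Genes that feed, control or extend the pathway were read from 4 lists. Of their 47 genes, 42 were tested and 24 passed (57.1%), 14 higher and 10 lower, beside 48.3% of all genes. The supply of acetyl units and NADPH, the reducing agent of fatty acid synthesis, had all 6 genes called, 4 higher (Slc25a1, G6pdx, Pgd and Idh1) and 2 lower, with a median log2 fold change of 0.41 (0.01 over all tested genes). Me1, cytosolic malic enzyme and a source of NADPH, fell from 150 to 203 CPM in WT to 80.2 to 129 CPM (-0.81 ± 0.11 on the log2 scale, SE, edgeR adjusted p 8.03e-05). Acss2, which makes acetyl-CoA from acetate, fell from 41.2 to 52.3 CPM to 26.1 to 34.8 CPM (-0.48 ± 0.08, edgeR adjusted p 0.000324). Idh1, cytosolic isocitrate dehydrogenase, rose from 23.8 to 28.2 CPM to 31.1 to 41.7 CPM (0.36 ± 0.08, edgeR adjusted p 0.00169). In each of these 3 genes the libraries of the groups did not overlap, as in 25.2% of all tested genes. These 3 were named for having the smallest p-values of their list. The enzymes of the pentose phosphate pathway (G6pdx and Pgd) and the citrate carrier Slc25a1 rose while Me1 and Acss2 fell, and each scaling run gave 4 higher and 2 lower.

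Malonyl-CoA turnover and the control of acetyl-CoA carboxylase had 6 of 10 genes called, 2 higher (Prkaa1 and Prkag2) and 4 lower (Mlycd, Prkab2, Prkaa2 and Stk11), with a median log2 fold change of -0.08. The share called was 60%, beside 48.3% of all tested genes. Mlycd, malonyl-CoA decarboxylase, which removes the product of Acacb, fell beside Acacb. It was at 126 to 159 CPM in WT and at 80.7 to 101 CPM in mdx/mTR, without overlap (-0.72 ± 0.07 SE, edgeR adjusted p 4.31e-06). Of all tested genes, 12.6% were lower without overlap. AMP-activated protein kinase inactivates the carboxylases, and its subunits were split. Prkab2, a regulatory beta subunit, fell from 660 to 785 CPM to 433 to 617 CPM (-0.44 ± 0.09, edgeR adjusted p 0.000933). Of the catalytic subunits, Prkaa1 rose from 18.7 to 23.0 CPM to 23.6 to 30.7 CPM (0.30 ± 0.08, edgeR adjusted p 0.00644). Prkaa2, the other one, fell from 475 to 550 CPM to 366 to 482 CPM (-0.21 ± 0.07, edgeR adjusted p 0.0224). Scaling by library totals called 3 of these genes higher and 2 lower, with a median of 0.07. Of all genes, that scaling called 40.2% higher and 11.2% lower, with a median of 0.169. Scaling by upper quartiles also gave 3 higher and 2 lower, with a median of -0.04. In both, the 2 lower genes were Mlycd and Prkab2, so Prkaa2 and Stk11 lost their call as lower.

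The other elongases and desaturases had 5 of 11 tested genes higher (Elovl1, Hsd17b12, Hacd1, Hacd2 and Fads1) and 1 lower, with a median of 0.23 (6 higher, 0 lower and a median of 0.40 with library totals as the scaling). In the main test 54.5% of the 11 were called in either direction, beside 48.3% of all tested genes. Elovl2, Elovl4, Elovl7, Scd3 and Scd4 were too low to be tested. Hsd17b12, the ketoreductase of elongation, rose from 6.33 to 8.18 CPM to 8.30 to 14.9 CPM (0.56 ± 0.13 SE, edgeR adjusted p 0.00256). Fads1, a desaturase of polyunsaturated fatty acids, rose from a median of 7.38 to one of 11.0 CPM (0.47 ± 0.12, edgeR adjusted p 0.00686), with overlap. Tecr, the reductase that ends each elongation cycle, fell from a median of 195 to one of 164 CPM (-0.22 ± 0.06, edgeR adjusted p 0.0111), a call that was lost with library totals alone (-0.0712, edgeR adjusted p 0.263).

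The list of SREBP, LXR, ChREBP and thyroid receptor control had 6 of 15 genes called, 3 higher (Srebf2, Scap and Mbtps1) and 3 lower (Insig1, Rxra and Mlxip), with a median of -0.11. The share called, 40%, lay below the 48.3% of all tested genes. Rxra, the partner receptor of LXR and thyroid hormone receptor, fell from 245 to 295 CPM to 177 to 233 CPM (-0.37 ± 0.07 SE, edgeR adjusted p 0.000742). Mlxip, the paralog of Mlxipl, fell from 170 to 185 CPM to 106 to 151 CPM (-0.42 ± 0.08, edgeR adjusted p 0.000844). Mbtps1, the first protease in the activation of SREBP, rose from 48.3 to 55.3 CPM to 56.1 to 63.0 CPM (0.20 ± 0.05, edgeR adjusted p 0.00242). Scaling by library totals called 6 of the 15 higher and 2 lower, with a median of 0.05. Of all genes, 40.2% were higher and 11.2% lower under that scaling, with a median of 0.169.

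**Figure D5:**
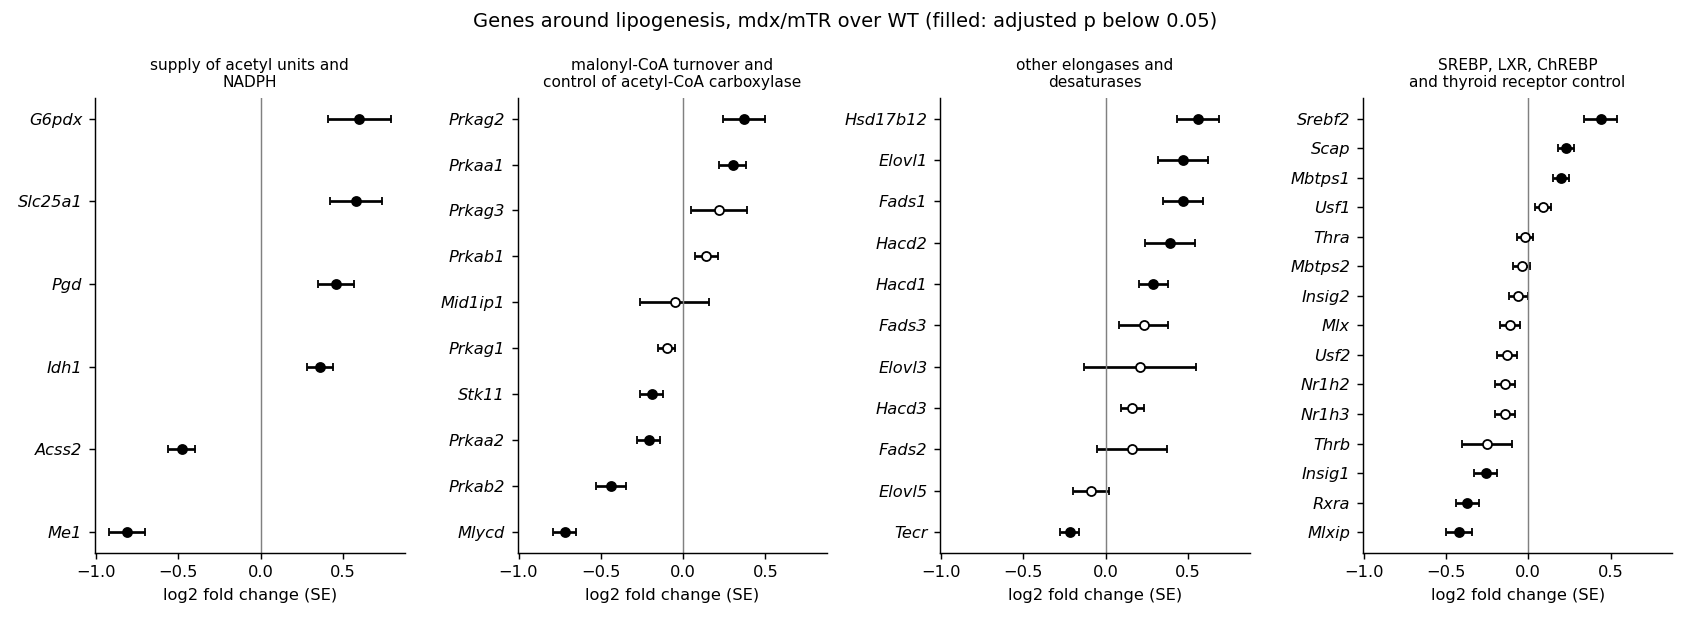
Log2 fold change (mdx/mTR over WT, bars SE) of the tested genes of the 4 lists around lipogenesis, with filled points for an adjusted p below 0.05. Me1, Mlycd and Acss2 lie farthest to the left, at -0.81, -0.72 and -0.48.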

How the data were processed

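Gene counts, whole numbers with a column for every sample, were used as the authors deposited them. The genome build mm10 and the tools FastQC, STAR and DESeq2 are named, without versions, in the submitters' processing notes. The counter, annotation and strand handling are not given in the sources used here. A second deposited table gives the authors' comparison of the groups. Per the file headers it lists the average normalized signal, log2 fold change, its error and a test score. Raw and adjusted p-values complete this deposited table. No per-sample column was left unmatched.

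The main test used edgeR 4.0.16 (R 4.3.3): filterByExpr, TMM scaling, group as the only term, glmQLFit and glmQLFTest, and Benjamini-Hochberg adjustment over 13937 genes at a threshold of 0.05. DESeq2 1.42.0 and limma 3.58.1 (voom) were alternatives, beside other filters and scalings, a replicate block and each library left out in turn. The procedure was also run on simulated counts in which few genes changed, as many up as down. That run did not test the choice of scaling. A 3-count floor is 0.0460 to 0.0837 CPM and, like all count limits here, covers counting error only. Shares were compared with exact permutation tests (scipy 1.17.1). Exon lengths (union of basic exons) and coordinates came from GENCODE M21 (GRCm38, the same assembly as mm10), and all 10 genes were matched. Coding sequences were aligned with Biopython 1.88.

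The genes, lists and tests were chosen with earlier results of these data known. The rule for naming took all 10 lipogenesis genes and, from each list around them, the 3 tested genes with the smallest p-values. Other genes of those lists are named only by their direction, except Prkaa2. Prkaa2, Adipoq, Lep and the marker levels of single libraries were chosen after their values were seen. One gene with a pattern like that of Acly is not reported here.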

Additional observations from a re-analysis of the deposited data

Results flagged for a closer look

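Single libraries that stand apart were sought with Dixon's ratio in the 10 genes, the 2 shares and the 7 marker sums, each group of 6 taken alone. Among 38 such sets 1 exceeded the 95% limit, where chance gives 1.90. It was Elovl6 in WT 2, the highest WT library at 1.34 CPM. The next library lay at 1.03 CPM and the lowest at 0.940 CPM, so that the gap above was 0.764 of the whole range.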

How the results depend on the processing

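Acacb and Thrsp kept their direction and their call under every filter, scaling, tool and left-out library run. The counts of all genes called ranged from 6076 to 7156. With library totals alone, 6 genes of the 10 were called higher, with log2 fold changes of 0.330 for Acaca (adjusted p 0.0187), 0.688 for Elovl6 (0.0441), 0.501 for Scd1 (0.0308) and 0.385 for Scd2 (0.03). DESeq2 and limma-voom called 2 lower, adding Mlxipl (-0.287 and -0.306). Leaving out 1 library at a time gave 1 to 3 genes higher, 1 to 2 lower, and log2 fold changes of 0.184 to 0.332 for Acly, 0.315 to 0.630 for Elovl6, 0.218 to 0.466 for Scd1, 0.133 to 0.276 for Scd2, -0.0477 to 0.0997 for Srebf1 (negative at -0.00704 and -0.00848 without WT 2 or 3, and -0.00484 and -0.0477 without mdx/mTR 1 or 6) and -0.399 to -0.211 for Mlxipl. The Scd2 share differed by -5.23 to 0.178 points, positive at 0.0227 without WT 2 and 0.178 without mdx/mTR 3. The cause of these changes was not tested. Elovl6 rests on as few as 34 counts in a library, the shallowest of the 10 genes.

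The groups share replicate numbers, and deviations of same-numbered libraries correlated at -0.155 to 0.354, with 2 of 6 above 0.1. The labels do not say whether the numbers pair the samples, and these correlations cannot decide it. With a replicate block Scd2 passed (0.210, adjusted p 0.0308), and no other gene of the 10 changed its call. The difference in the Acacb share stayed at -1.09 points, with an exact sign-flip adjusted p of 0.0625, which 6 pairs and 2 tests could not bring lower unless both shares differed.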
